A study of Mus musculus with 24 samples.

Results

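The genes of the MHC class II pathway H2-Aa, H2-Ab1, H2-Eb1, H2-DMa, H2-DMb1, H2-DMb2 and Cd74, together with Ciita, were followed gene by gene and library by library through mouse tissue-resident macrophages (TRMs) that had been sorted or cultured. They were chosen by name and are 8 of the 45706 genes in the count table. RNA-seq was available for microglia (MG) of the brain, Kupffer cells (KCs) of the liver, peritoneal macrophages (PMs) and alveolar macrophages (AMs), each sorted from tissue ("ex vivo"), and for the TRM-like cells grown from the same 4 tissues ("in vitro": MG-LCs, KC-LCs, PM-LCs and AM-LCs), with 3 libraries a group and 24 in all. All mice were C57BL/6J females, of 8 to 12 weeks by the sample labels and of 8 weeks by the study's methods. The sorting gates were CD45 and CD11b for MG, with F4/80 and TIM-4 added for KCs, F4/80 and CD115 added for PMs, and SiglecF added for AMs. No gate on class II protein is described. Cultures were kept for 14 days in flasks that pooled cells of 3 mice, or of 1 mouse for KC-LCs. MG-LCs received M-CSF and IL-34 at 20 ng/mL each, KC-LCs and PM-LCs received M-CSF at 20 ng/mL, and AM-LCs received GM-CSF at 20 ng/mL in medium without glucose. AM-LCs were kept at atmospheric oxygen and the other cultures at 3% oxygen. KC-LCs and PM-LCs therefore shared their medium and oxygen, whereas for AM-LCs and MG-LCs the tissue of origin and the culture conditions cannot be told apart. No statement says that the 3 libraries of a group came from separate mice or flasks, so p-values measure the spread between these libraries, which may be technical.

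MHC class II molecules display peptides from the endosomal pathway to CD4 T cells. An alpha and a beta chain (H2-Aa with H2-Ab1 for I-A; H2-Eb1 is the beta chain of I-E) assemble on the invariant chain, which Cd74 encodes, and the H2-DM molecule, made of H2-DMa and an H2-DMb chain, later exchanges the remnant of the invariant chain for peptide. CIITA, the product of Ciita, does not bind DNA itself but joins the RFX, CREB and NF-Y factors on the promoters of these genes. In macrophages this system is known to be induced by interferon gamma, whereas dendritic cells and B cells use it constitutively. The 6 H2 genes lie on chromosome 17 (GRCm38), from the start of H2-DMa at 34119541 to the end of H2-Eb1 at 34316674, and Ciita spans 10480059 to 10528418 on chromosome 16. C57BL/6 mice lack the I-E alpha chain, and the pseudogene H2-Ea-ps was without a read in all 24.

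The promoters are shown so that letters known to be recognised by NF-Y and RFX, factors that CIITA joins, can be looked for. RefSeq promoter windows of 300 bases (GRCm38.p6) were matched for 5 of the 8 genes: H2-Aa, H2-Eb1, H2-DMa, H2-DMb1 and H2-DMb2. H2-Ab1, Cd74 and Ciita had no entry. The 72 bases printed 5′ to 3′ on the strand of the gene surround the Y box, and capitals mark the letters TGATTGG (the inverted CCAAT motif that NF-Y recognises) and, upstream of it, GNAAC (the core of the X box that RFX recognises).
H2-Aa (chr17:34287852-34287923, minus strand): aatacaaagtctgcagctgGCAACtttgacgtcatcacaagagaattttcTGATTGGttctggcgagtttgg
H2-Eb1 (chr17:34305756-34305827, plus strand): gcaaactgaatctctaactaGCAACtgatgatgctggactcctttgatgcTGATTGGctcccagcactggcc
H2-DMb1 (chr17:34153078-34153149, plus strand): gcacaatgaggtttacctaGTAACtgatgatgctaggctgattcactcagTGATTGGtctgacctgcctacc
H2-DMb2 (chr17:34145107-34145178, plus strand): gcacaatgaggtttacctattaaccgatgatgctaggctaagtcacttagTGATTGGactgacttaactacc
TGATTGG was found in the windows of 4 of the 5 genes. It lay 50, 61, 63 and 92 bases upstream of the RefSeq start in one or other of them, and was absent from both start-site windows of H2-DMa. In H2-Aa, H2-Eb1 and H2-DMb1 a GNAAC stood 25 or 26 bases before it. The windows of H2-DMb1 and H2-DMb2 were identical at 63 of 72 positions, and the GTAAC of H2-DMb1 was not found in H2-DMb2. Both strands of 32851 RefSeq promoters of the same length were searched. TGATTGG was present in 7.82% of them, GNAAC in 84.8%, and a GNAAC followed 10 to 40 bases later by TGATTGG in 0.828%. The letters were chosen after these sequences had been read, and a match describes the letters and is not evidence of binding.

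Library depth ranged from 29569486 to 47105111 reads (median 35965750), at which 3 reads correspond to 0.0661 to 0.115 CPM (counts scaled to the size of the library). Levels below are CPM after TMM normalisation over all 24 libraries. The summed markers of each TRM were high in its own sorted group: 18691 to 19618 CPM for microglia markers in MG, 13895 to 24806 CPM for Kupffer markers in KCs, 8005 to 8188 CPM for peritoneal markers in PMs and 3095 to 3246 CPM for alveolar markers in AMs. In the matching cultures they were 295 to 2398, 17.0 to 94.1, 77.6 to 91.1 and 141 to 749 CPM. The Kupffer and alveolar lists were not particular to their own group. Kupffer markers also summed to 3017 to 3672 CPM in PMs, and alveolar markers to 1226 to 1862 CPM in KCs. Microglia and peritoneal markers reached at most 416 and 46.0 CPM in other sorted groups. Kupffer markers were higher in PM-LCs (142 to 826 CPM) and MG-LCs (215 to 2234 CPM) than in KC-LCs. Some libraries stood apart. KC replicate 1 held 967 CPM of dendritic cell markers, against 172 and 179 CPM in the other KC libraries, and MG-LC replicate 1 held 30979 CPM of fibroblast and mesothelium markers, against 7.39 and 1012 CPM. The same fibroblast list summed to 22.9, 2209 and 366 CPM in PM-LCs and 17.1, 181 and 1668 CPM in AM-LCs, so that PM-LC replicate 2 and AM-LC replicate 3 were highest, the libraries with the lowest class II sums of their groups. PM-LC replicate 1 held 303 CPM of B cell markers, against 25.8 and 51.7 CPM. In bulk RNA of this kind, fewer cells of a type and less RNA per cell cannot be told apart.

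Among sorted TRMs, class II transcripts were highest in KCs and lowest in MG. The 8 genes together took 2.86% ± 1.54 (SD, n = 3) of all reads in KCs, 0.349% ± 0.0505 in AMs, 0.109% ± 0.0451 in PMs and 0.0374% ± 0.000693 in MG. In culture they took 0.674% ± 0.488 in AM-LCs, 0.226% ± 0.192 in KC-LCs, 0.102% ± 0.0573 in PM-LCs and 0.0326% ± 0.0193 in MG-LCs. The order of KC-LCs and PM-LCs rests on 1 library. Summed over the 8 genes, KC-LCs averaged 2362 CPM and 1152 CPM without KC-LC replicate 3, which is below the 1194 CPM of PM-LCs. AM-LCs averaged 8279 CPM and 5000.3 CPM without AM-LC replicate 1. The share was lower in KC-LCs than in KCs in every library, and in AM-LCs and AMs the ranges met, since the lowest AM-LC library summed to 3801 CPM and the highest AM library to 3823 CPM.

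**Figure D1:**
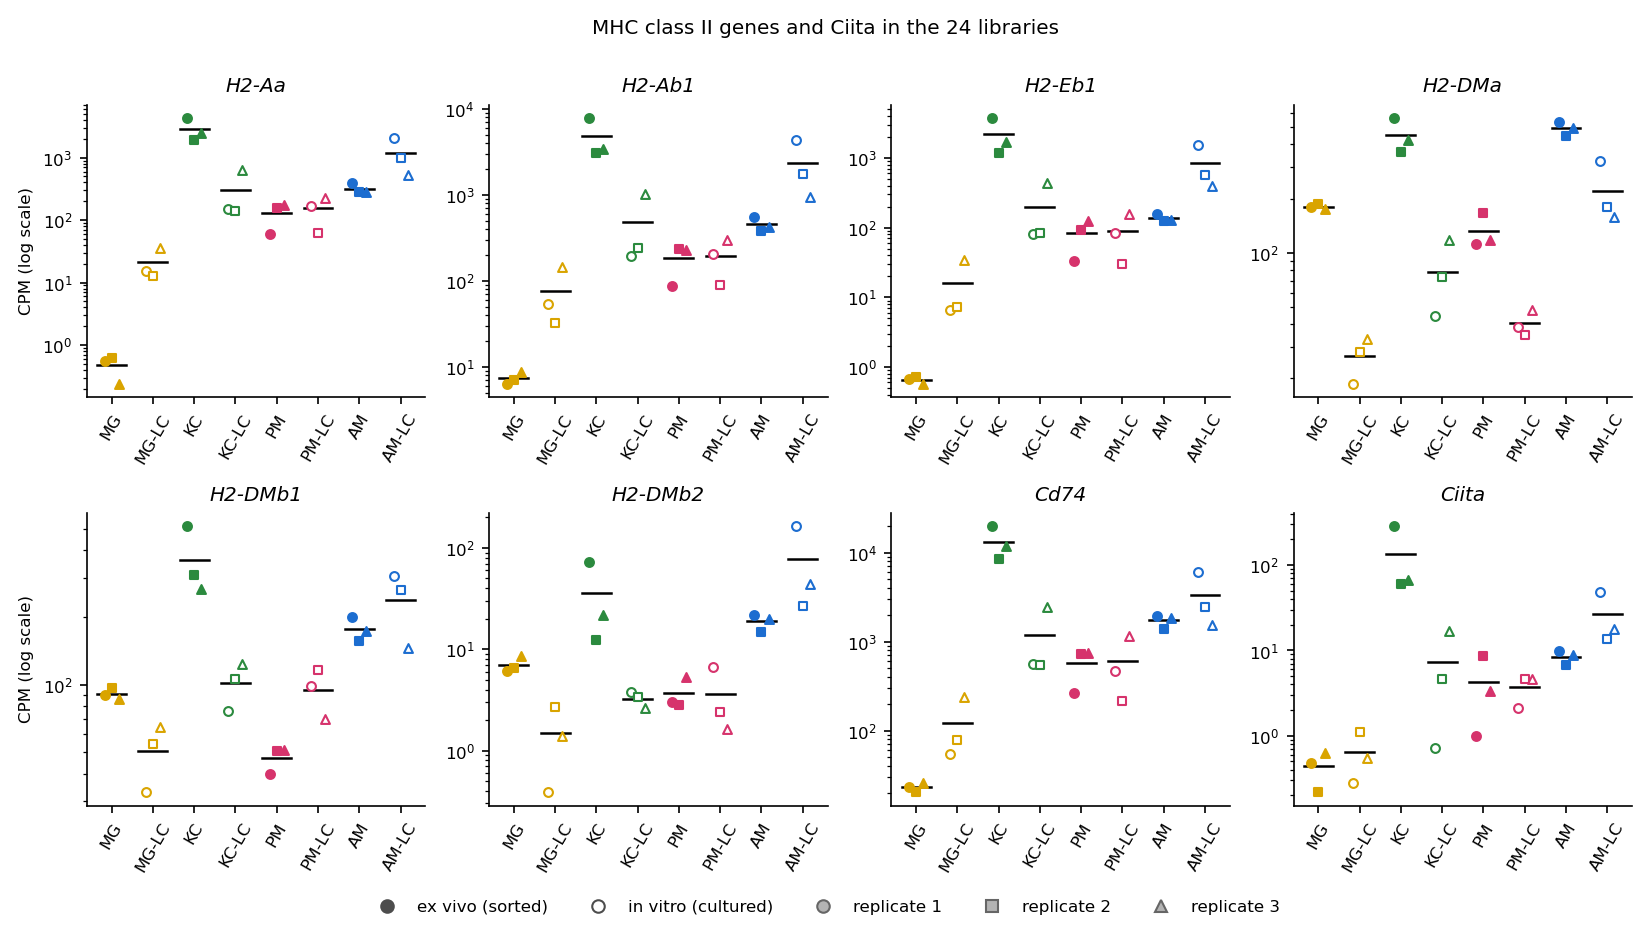
Level of each of the 8 genes in every library (log-scaled axis, TMM-normalised CPM), with 1 panel per gene and the 8 groups side by side. Points are libraries, open for cultures, and bars are means of 3. Sorted KCs reach 1166 CPM or more for H2-Aa, H2-Ab1, H2-Eb1 and Cd74 while sorted MG stay at or under 25.6 CPM for the same genes.

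H2-Aa encodes the alpha chain of I-A. Its level was 4328, 1944 and 2437 CPM in the 3 KC libraries and 149, 140 and 633 CPM in KC-LCs. It was 386, 282 and 283 CPM in AMs and 2050, 975 and 537 CPM in AM-LCs. Neither pair overlapped, as was so for 54.1% of all genes tested in the liver and 61.7% in the lung. The direction was opposite: the sorted cells were higher in the liver and the cultured cells in the lung. In PMs it was 59.1, 159 and 172 CPM and in PM-LCs 169, 61.9 and 230 CPM, which overlap. In MG it was 0.551, 0.622 and 0.239 CPM, from only 25, 23 and 10 reads, and in MG-LCs 15.4, 12.7 and 35.3 CPM. The log2 difference ex vivo minus in vitro was 3.28 ± 0.70 (SE) for KCs (edgeR quasi-likelihood, adjusted p = 0.0104), -1.89 ± 0.44 for AMs (adjusted p = 0.0101), -5.52 ± 0.63 for MG (adjusted p = 0.00202) and -0.24 ± 0.54 for PMs (adjusted p = 0.77). Every p-value from edgeR here is adjusted by Benjamini-Hochberg over all genes tested in that comparison.

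H2-Ab1, the I-A beta chain, stands on the opposite strand close by and followed the same order. It was measured at 7877, 3079 and 3408 CPM in KCs and 194, 244 and 1019 CPM in KC-LCs (3.34 ± 0.76, edgeR adjusted p = 0.0134). In AMs it was 560, 379 and 428 CPM and in AM-LCs 4364, 1738 and 943 CPM (-2.35 ± 0.51, adjusted p = 0.00804). The AM-LC libraries spread over more than the AM libraries did, and all 3 lay above them. PMs held 86.7, 235 and 228 CPM and PM-LCs 207, 88.8 and 295 CPM, with no call (-0.11 ± 0.51, adjusted p = 0.894). MG held 6.32, 7.01 and 8.59 CPM and MG-LCs 53.6, 32.6 and 144 CPM (-3.43 ± 0.58, adjusted p = 0.00614). H2-Ab1 was thus the best detected of the classical chains in MG.

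H2-Eb1, the I-E beta chain, was at 3758, 1166 and 1697 CPM in KCs and 81.2, 85.1 and 436 CPM in KC-LCs (3.50 ± 0.82, edgeR adjusted p = 0.0144). In AMs it was 157, 123 and 130 CPM and in AM-LCs 1548, 574 and 398 CPM (-2.61 ± 0.47, adjusted p = 0.00382). It was the gene with the most negative fitted difference among the 8 in the lung. PMs had 33.7, 92.3 and 124 CPM and PM-LCs 82.4, 30.5 and 157 CPM (-0.11 ± 0.64, adjusted p = 0.912). MG had 0.683, 0.730 and 0.573 CPM, from 31, 27 and 24 reads, and MG-LCs 6.63, 7.27 and 34.7 CPM (-4.64 ± 0.80, adjusted p = 0.0063). As for the I-A chains, MG-LC replicate 3 was the highest of its group.

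The order of the sorted groups was KCs, AMs, PMs and MG for all 3 classical chains. Between KCs and AMs the log2 difference of H2-Aa was 3.21 ± 0.45 (edgeR adjusted p = 0.000158). Between PMs and MG it was 8.16 ± 0.59 (adjusted p = 6.15e-07). AMs and PMs, the neighbours in between, were closer. H2-Aa differed by 1.27 ± 0.42 (adjusted p = 0.0327) and lost this call without PM replicate 1 or without any one of the AM libraries. H2-Eb1 did not pass the test between AMs and PMs (adjusted p = 0.264). In culture the order was AM-LCs, KC-LCs, PM-LCs and MG-LCs for each chain, and no pair of neighbours passed the test.

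Cd74, the invariant chain that occupies the class II groove until DM acts, had the most reads of the 8 genes in KCs. It was at 19682, 8424 and 11878 CPM in KCs and 554, 545 and 2433 CPM in KC-LCs (3.54 ± 0.74, edgeR adjusted p = 0.0098). In AMs it was 1953, 1399 and 1834 CPM and in AM-LCs 6031, 2426 and 1557 CPM. The AM-LC library that was lowest lay within the AM range, and the difference did not pass the test (-0.94 ± 0.45, adjusted p = 0.121). Without that library, AM-LC replicate 3, it did (-1.27, adjusted p = 0.0265). PMs held 262, 724 and 749 CPM and PM-LCs 465, 217 and 1149 CPM (-0.09 ± 0.63, adjusted p = 0.931). MG held 23.5, 20.2 and 25.6 CPM and MG-LCs 54.0, 78.4 and 236 CPM, so that Cd74 was higher in MG-LCs (-2.45 ± 0.57, adjusted p = 0.0158). That call was lost when any one MG library was left out (edgeR adjusted p = 0.0677 to 0.0757). The groups did not overlap, as was so for 65.4% of all genes tested.

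H2-DMa, the alpha chain of the peptide exchanger H2-DM, behaved differently from the classical chains. It was higher ex vivo in all 4 populations. MG had 179, 186 and 176 CPM against 18.6, 28.0 and 32.9 CPM in MG-LCs (2.72 ± 0.24, edgeR adjusted p = 0.00106). KCs had 562, 365 and 424 CPM against 44.7, 73.4 and 118 CPM in KC-LCs (2.55 ± 0.40, adjusted p = 0.00361). These differences in MG and KCs were of like size, whereas the classical chains moved in opposite directions in them. PMs had 111, 167 and 118 CPM against 38.6, 34.7 and 47.9 CPM in PM-LCs (1.71 ± 0.23, adjusted p = 0.00187). AMs had 533, 447 and 496 CPM against 326, 180.2 and 157 CPM in AM-LCs (1.15 ± 0.26, adjusted p = 0.00857). No library overlapped in any of the 4 comparisons. The annotated H2-DMa model overlaps the neighbouring gene Brd2, with which it shares 8.43% of its stretches of read length, and the libraries do not mark strand. Brd2 itself averaged 203 CPM ± 29.2 (SD, n = 3) in MG against 192 CPM ± 12.0 in culture and 207 CPM ± 34.5 in KCs against 159 CPM ± 24.7 in culture. It averaged 133 CPM ± 14.3 in PMs against 176 CPM ± 35.8 in culture and 234 CPM ± 27.7 in AMs against 143 CPM ± 16.9 in culture. The part of reads shared with Brd2 in the H2-DMa differences was not tested.

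H2-DMb1, a beta chain of H2-DM, was highest in KCs. It was at 511, 310 and 269 CPM in KCs and 76.1, 106 and 124 CPM in KC-LCs (1.87 ± 0.34, edgeR adjusted p = 0.00583). In MG it was 89.9, 96.9 and 86.6 CPM and in MG-LCs 32.9, 54.2 and 64.7 CPM, a smaller difference (0.81 ± 0.26, adjusted p = 0.0423). In PMs the direction was the opposite of that of its partner H2-DMa. PMs held 40.0, 50.2 and 50.8 CPM and PM-LCs 98.2, 116 and 69.9 CPM (-1.01 ± 0.23, adjusted p = 0.0156). AMs held 202, 157 and 174 CPM and AM-LCs 307, 267 and 146 CPM, which overlap (-0.43 ± 0.24, adjusted p = 0.18). The call in PMs was lost without any one PM library (adjusted p = 0.0574 to 0.0908), as was the call in MG without any one MG library (adjusted p = 0.104 to 0.126).

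H2-DMb2 encodes the other H2-DM beta chain. In KCs it was at 72.4, 12.3 and 21.9 CPM and in KC-LCs at 3.79, 3.34 and 2.65 CPM (3.49 ± 0.67, edgeR adjusted p = 0.00744). In AMs it was at 21.7, 14.9 and 20.1 CPM and in AM-LCs at 163, 26.7 and 44.2 CPM (-2.04 ± 0.62, adjusted p = 0.0305). AM-LC replicate 1 alone was far above the rest, and without it the difference was -0.95. The call was lost without any one AM library (adjusted p = 0.0845 to 0.109) and by limma-voom (0.0627). In MG it was at 6.06, 6.47 and 8.47 CPM and in MG-LCs at 0.385, 2.69 and 1.40 CPM (2.19 ± 0.69, adjusted p = 0.0423), a call that was lost without any one MG library (adjusted p = 0.11 to 0.134) or without MG-LC replicate 3 (0.0913). In PMs it was at 3.04, 2.81 and 5.29 CPM and in PM-LCs at 6.69, 2.43 and 1.62 CPM (0.07 ± 0.62, adjusted p = 0.945). H2-DMb1 and H2-DMb2 are near copies: 22.7% of the read-length stretches of H2-DMb1 occur in H2-DMb2 as well, so their counts may be split or lost between them, and the values of each are uncertain to that extent.

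Sorted groups took another order for H2-DM than for the classical chains. H2-DMa was at similar levels in AMs and KCs (adjusted p = 0.666 by edgeR), then came MG, above which KCs stood clearly (adjusted p = 0.00018), and last PMs, which did not differ from MG by the test (adjusted p = 0.119). For H2-DMb1 the order was KCs, AMs, MG and PMs, and each neighbour passed (adjusted p = 0.00289, 0.0027 and 0.00626). H2-DMb1 was the member that passed the test as higher in MG than in PMs, while the means of H2-DMa and H2-DMb2 were also higher in MG without passing. For H2-DMb2 only AMs and MG differed among neighbours (adjusted p = 0.0362), a call that was lost without any one AM or MG library. In culture H2-DMa and H2-DMb1 were higher in AM-LCs than in KC-LCs (adjusted p = 0.039 and 0.0481), and H2-DMb2 was higher in AM-LCs than in PM-LCs (adjusted p = 0.0207). These calls were not stable to the choice of libraries. H2-DMa lost its call without 5 of the 6 libraries in turn (adjusted p = 0.0614 to 0.146), as did H2-DMb1 (0.0952 to 0.162), and H2-DMb2 lost its call without AM-LC replicate 1, PM-LC replicate 2 or PM-LC replicate 3 (0.0582 to 0.0744).

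Ciita encodes the transactivator itself. KCs held 284, 60.3 and 66.6 CPM, and KC-LCs 0.720, 4.61 and 16.7 CPM, the latter from 30, 185 and 662 reads. The difference was 4.26 ± 1.14 (edgeR adjusted p = 0.0241), and it was 3.13 without KC replicate 1, the library with the most Ciita and the most dendritic cell markers. AMs held 9.83, 6.80 and 8.75 CPM and AM-LCs 48.5, 13.7 and 17.9 CPM (-1.66 ± 0.47, adjusted p = 0.0225). Without AM-LC replicate 1 it was -0.94, and the call was lost without any one AM library (adjusted p = 0.061 to 0.0882). PMs held 1.00, 8.51 and 3.31 CPM and PM-LCs 2.10, 4.58 and 4.61 CPM (0.18 ± 0.76, adjusted p = 0.882). In MG Ciita was at 0.485, 0.216 and 0.621 CPM, from 22, 8 and 26 reads, and in MG-LCs at 0.282, 1.10 and 0.543 CPM. These groups overlapped, and the difference of -0.58 ± 0.70 (adjusted p = 0.517) did not pass, while those of H2-Aa, H2-Ab1, H2-Eb1 and Cd74 did. The sorted order was KCs, AMs, PMs and MG, and AMs and PMs did not differ by the test (adjusted p = 0.318). The Ciita model overlaps the gene Dexi, with which it shares 1.46% of its read-length stretches. Mean Dexi levels stayed between 11.8 and 20.8 CPM in the 8 groups, with 15.3 CPM in KCs and 16.0 CPM in KC-LCs.

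Each tissue had its own pattern across the 8 genes. In KCs against KC-LCs, 8 of 8 were higher ex vivo, where 19.4% of all genes tested were, and 0 of 8 were higher in vitro, where 14.4% of genes were. The median log2 difference was 3.41 over the 8 genes and 0.01 over all genes. All 8 calls remained without KC replicate 1, with log2 differences from 1.52 for H2-DMb1 to 3.13 for Cd74 and Ciita. Without KC-LC replicate 2, 5 of 8 remained, as H2-Ab1 (edgeR adjusted p = 0.0631), H2-Eb1 (0.0621) and Ciita (0.102) no longer passed. The share of all genes called without these libraries is not given.

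In MG against MG-LCs, calls were made in both directions. H2-Aa, H2-Ab1, H2-Eb1 and Cd74 were higher in MG-LCs, which is 4 of 8 where 25.2% of genes were higher in vitro. H2-DMa, H2-DMb1 and H2-DMb2 were higher in MG, which is 3 of 8 where 21.2% of genes were higher ex vivo. The median over the 8 genes was -1.51 and that over all genes -0.03. Without MG-LC replicate 1, the library with the fibroblast markers, the counts were again 3 of 8 higher in MG and 4 of 8 higher in MG-LCs, and the difference of Cd74 was -2.82 (edgeR adjusted p = 0.00471). Without any one MG library they were 1 of 8 and 3 of 8, as H2-DMb1, H2-DMb2 and Cd74 no longer passed. What share of all genes was called in such fits is not given.

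In AMs against AM-LCs, H2-Aa, H2-Ab1, H2-Eb1, H2-DMb2 and Ciita were higher in vitro, which is 5 of 8 where 25.9% of genes were. H2-DMa was higher ex vivo, which is 1 of 8 where 22.9% of genes were. The median was -1.77 over the 8 genes and -0.04 over all genes. Fibroblast markers were higher in AM-LCs in 5 of 5 tested, and without AM-LC replicate 3, where they were highest, 7 of 8 class II genes were higher in vitro. Without any one AM library 3 of 8 were, as H2-DMb2 and Ciita no longer passed. For the counts in this paragraph with a library left out, the share of all genes is not given. In PMs against PM-LCs, H2-DMa was higher ex vivo (1 of 8, where 12.1% of genes were) and H2-DMb1 higher in vitro (1 of 8, where 16.8% of genes were). The other 6 genes had fitted differences between -0.24 and 0.18 with standard errors of 0.51 to 0.76, so a change of the size fitted for H2-DMb1 could not be resolved for them. The median over the 8 genes was -0.10 and that over all genes -0.01. Fibroblast markers were higher in PM-LCs in 7 of 8, and without PM-LC replicate 2, where they were highest, the calls were again 1 of 8 in each direction. The part of such cells in the lung and peritoneum results was not tested.

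**Figure D2:**
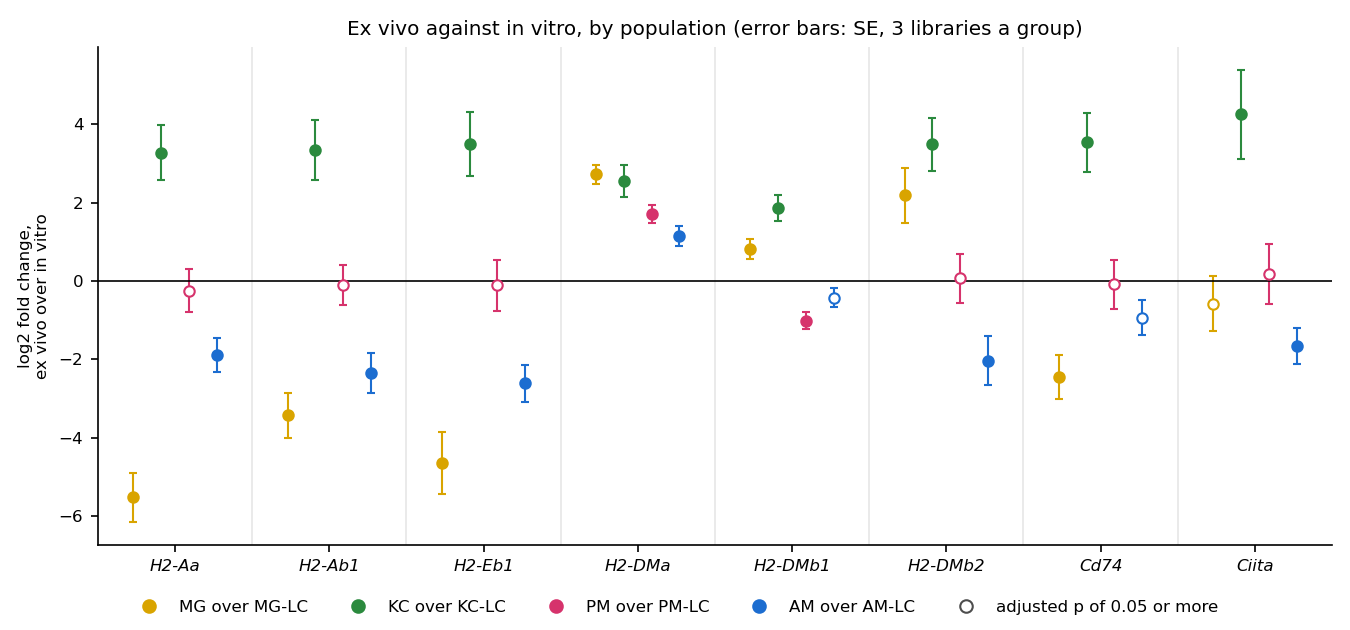
Log2 difference ex vivo minus in vitro of each of the 8 genes in MG, KCs, PMs and AMs (points, with bars of 1 SE from edgeR; open points have an adjusted p of 0.05 or more). All 8 points lie above 0 in KCs, and H2-DMa lies above 0 in the 4 populations.

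The differences between populations were tested by the interaction of population and state over all 24 libraries. All 8 genes passed (edgeR), where 36.3% of 17408 genes did. The adjusted p was lowest for H2-Aa (2.58e-05) and highest for H2-DMa (0.0229), the gene with the same direction in the 4 populations. For H2-DMa it was lost without AM replicate 2 (adjusted p = 0.0555) or AM-LC replicate 1 (adjusted p = 0.061). For Ciita it was lost by limma-voom (adjusted p = 0.0945).

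Between sorted populations, 8 of 8 genes were higher in KCs than in MG (24.7% of genes were), 8 of 8 were higher in AMs than in MG (27.3%), and 8 of 8 were higher in KCs than in PMs (20%). KCs exceeded AMs in 6 of 8 (24.2%), the exceptions being H2-DMa and H2-DMb2, and AMs exceeded PMs in 6 of 8 (18%), the exceptions being H2-Eb1 and Ciita. The latter count was 4 without PM replicate 1 or any one AM library, and with the replicate number as a block, as H2-Aa and H2-Ab1 no longer passed. No share of all genes is given for those fits. PMs exceeded MG in 5 of 8 (24.1%) and MG exceeded PMs in 1 of 8 (20.6%), H2-DMb1. These comparisons share libraries and are no independent evidence of each other.

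Between cultures, the calls of edgeR lay with AM-LCs. All 8 genes were higher in AM-LCs than in MG-LCs, where 4.95% of genes were. AM-LCs exceeded KC-LCs in H2-DMa, H2-DMb1 and H2-DMb2, which is 3 of 8 (4.72% of genes), and PM-LCs in these and H2-Ab1, which is 4 of 8 (2.82%). With 1 library left out these counts were 0 to 2 and 1 to 3, and the share of all genes in those fits is not given. MG-LCs and KC-LCs differed in 0 of 8 by edgeR, as did 0% of all genes, so this count says nothing particular to the 8. Their libraries did not overlap in 6 of 8, where 17.3% of genes did not. The median log2 difference, MG-LCs minus KC-LCs, was -2.95 over the 8 genes and 0.06 over all genes. At an unadjusted p under 0.05 these cultures differed in 7 of 8, where 15.4% of genes did. Limma-voom called 0 (0% of genes) and DESeq2 called 6 (7.15% of genes). MG-LCs and PM-LCs differed in 0 of 8 by edgeR (0.0743% of genes), with 5 of 8 at an unadjusted p under 0.05 (14.6%), 0 by limma-voom (0.25%) and 1 by DESeq2 (6.15%). KC-LCs and PM-LCs, which shared their medium, differed in 0 of 8 by edgeR (0.108% of genes), with 1 of 8 at an unadjusted p under 0.05 (13.4%), 0 by limma-voom (0.162%) and 0 by DESeq2 (7.14%).

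Levels of different genes were compared as CPM per kilobase of exon. In sorted MG, H2-DMb1 (54.2) and H2-DMa (52.3) stood above Cd74 (13.8), H2-DMb2 (4.01), H2-Ab1 (2.85), H2-Eb1 (0.341), H2-Aa (0.124) and Ciita (0.0462). MG were the only sorted group in which the 2 most abundant members were H2-DM chains. In KCs Cd74 was at 7938 CPM per kilobase. Ciita was the lowest of the 8 in each group, from 0.0462 in MG to 14.4 in KCs. In MG-LCs Cd74 (73.2) was again above H2-DMb1 (30.1) and H2-Ab1 (29.8).

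Per kilobase, the ratio of H2-Aa to H2-Ab1 was between 0.361 and 0.517 in the group means of KCs, PMs, AMs and their cultures. It was 0.0459 ± 0.0235 (SD, n = 3) in MG and 0.208 ± 0.0502 in MG-LCs. The ratio in MG rests on 10 to 25 reads of H2-Aa a library. Cd74 stood at 4.89 times H2-Ab1 in MG and 4.45 times in KCs, so in sorted MG and KCs their ratio was nearly the same at very different levels. This ratio was 4.79 in PMs and 5.84 in AMs. In culture it was 2.58 ± 1.07 (SD, n = 3) in MG-LCs, 3.82 in KC-LCs, 4.38 in PM-LCs and 2.26 in AM-LCs. H2-DMa to H2-DMb1 was lower in culture in each population. In the brain the group means were 0.965 ex vivo and 0.258 in vitro, in the liver 0.627 and 0.362, in the peritoneum 1.37 and 0.224, and in the lung 1.36 and 0.457. The libraries of the paired groups did not overlap in any of the 4 tissues. With 3 libraries a group, an exact permutation test cannot give a two-sided p below 0.1, and none was run on the ratios.

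**Figure D3:**
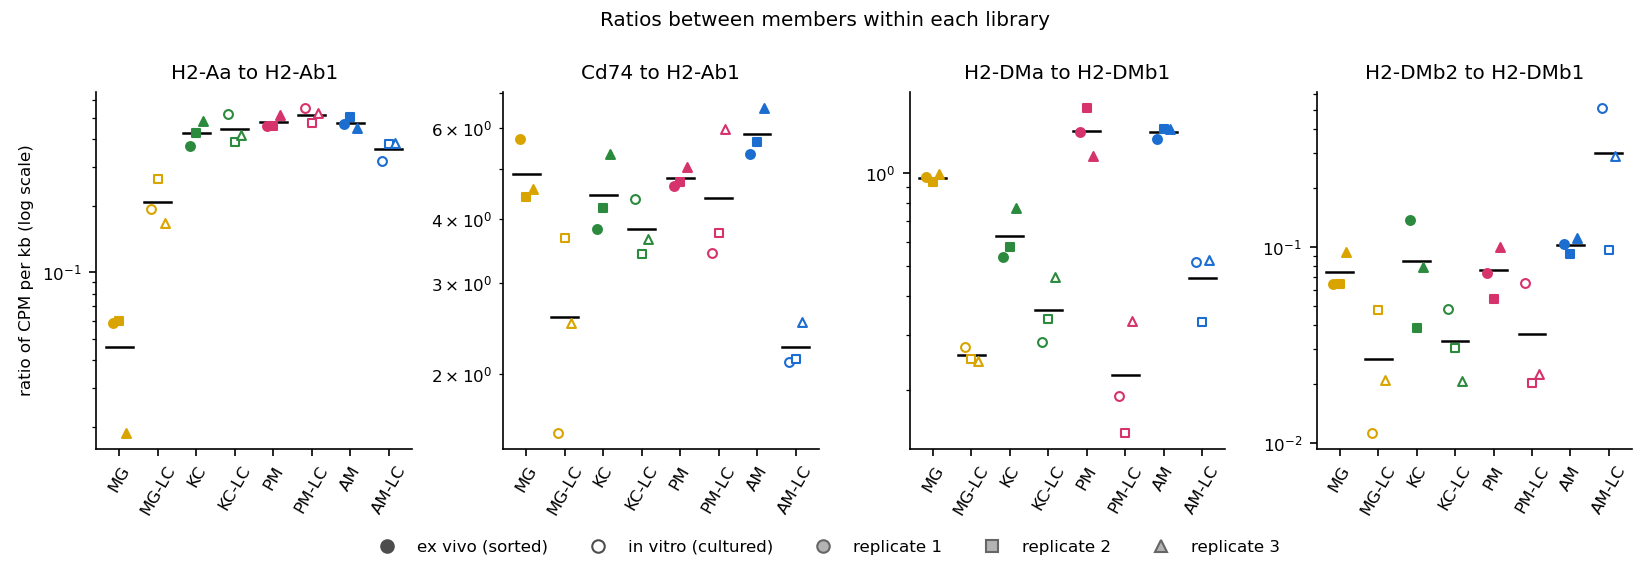
Ratios between members per kilobase of exon in every library (log-scaled axes), by group, with points for libraries and bars for group means. The H2-Aa to H2-Ab1 ratio is lowest in MG (0.0459), and the H2-DMa to H2-DMb1 ratio is lower in each culture than in its sorted counterpart.

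Within groups the genes tended to peak in the same library. The library that was highest for H2-Ab1 was also highest for Cd74, H2-DMa and Ciita in 7 of 8 groups each, for H2-Aa and H2-Eb1 in 6 each, for H2-DMb1 in 5 and for H2-DMb2 in 4. KC replicate 1, AM-LC replicate 1, KC-LC replicate 3 and MG-LC replicate 3 were such libraries. PM replicate 1 was the lowest of its group, with a class II sum of 597 CPM against 1439 and 1451 CPM. The highest Ciita library was 23.2 times the lowest in KC-LCs and 8.49 times in PMs, and the highest H2-DMb2 library was 6.98 times the lowest in MG-LCs and 6.08 times in AM-LCs.

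Other genes of the pathway were taken in lists by role. Of the remaining class II chains, H2-Oa and H2-Ob form H2-DO, which restrains H2-DM. In sorted MG H2-Oa was at 22.9, 23.9 and 27.9 CPM and H2-Ob at 51.5, 48.2 and 44.9 CPM, and in MG-LCs their means were 0.393 and 7.17 CPM. Both were higher in MG (5.94 ± 0.81, edgeR adjusted p = 0.00329, and 2.71 ± 0.72, adjusted p = 0.0243), like the H2-DM chains and unlike the classical ones. They were also higher in KCs than in KC-LCs (5.08 ± 1.47, adjusted p = 0.032, and 3.29 ± 0.83, adjusted p = 0.0193), with 54.5 CPM of H2-Oa in KC replicate 1 and 2.93 and 4.82 CPM in the others. H2-Ob was lower in AMs than in AM-LCs (-4.82 ± 0.93, adjusted p = 0.00498), while in PMs H2-Ob did not pass and H2-Oa was too low to be tested. H2-Eb2 was at 0 CPM in 5 of the 8 groups.

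Of the 7 genes of the promoter complex that CIITA joins, Rfx5, which encodes a DNA-binding RFX subunit, was higher ex vivo in the 4 populations. Its mean was 23.6 CPM in MG against 10.3 CPM in culture (1.15 ± 0.33, edgeR adjusted p = 0.0302), 12.9 and 5.53 CPM in KCs and KC-LCs (1.26 ± 0.36, adjusted p = 0.0307), 13.1 and 4.55 CPM in PMs and PM-LCs (1.52 ± 0.47, adjusted p = 0.0483), and 9.26 and 2.90 CPM in AMs and AM-LCs (1.66 ± 0.33, adjusted p = 0.00521). Rfxank and Creb1 were also higher in MG, and the NF-Y subunit gene Nfyc was higher in PMs and AMs. None of the 7 was higher in vitro, where 14.4% to 25.9% of all genes were, by population. The sorted order of the classical chains was not seen in Rfx5, which had its highest mean in MG.

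Among genes that carry the interferon gamma signal to Ciita, the receptor chain gene Ifngr1, the kinase gene Jak2 and the transcription factor gene Irf1 (2.39 ± 0.41, edgeR adjusted p = 0.00494) were higher in KCs than in KC-LCs. Irf1 was at 355, 373 and 383 CPM in KCs and 47.4, 48.3 and 121 CPM in KC-LCs. KC replicate 1, the highest library for Ciita, was the lowest for Irf1, although the Irf1 levels of the KC libraries lay close together. In AMs, where Ciita was lower ex vivo, Ifngr1 and Irf1 (1.47 ± 0.28, adjusted p = 0.00493) were higher ex vivo and Ifngr2 was lower. Ifngr1 was higher in MG and Ifngr2 was lower in PMs. The part of these genes in the Ciita levels was not tested.

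Among 6 genes of antigen processing and class II turnover, Ifi30, which encodes a lysosomal thiol reductase, was at 437 CPM in KCs and 59.5 CPM in KC-LCs (2.92 ± 0.35, edgeR adjusted p = 0.00146). The ubiquitin ligase gene March1, whose product removes class II from the surface, was higher in MG (2.18 ± 0.25, adjusted p = 0.002) and in KCs (1.45 ± 0.47, adjusted p = 0.0479). The protease gene Ctsl was higher in culture in KC-LCs, PM-LCs and AM-LCs, at 914, 3330 and 4500 CPM against 315, 343 and 354 CPM in the sorted cells. In PMs, 4 of 6 were higher in vitro (Ctss, Ctsl, Lgmn and Cd83), where 16.8% of all genes were. Cd83, which protects class II from March1, was at 2.91 CPM in PMs and 295 CPM in PM-LCs (-6.66 ± 0.38, edgeR adjusted p = 5.58e-05). In KCs 3 were higher ex vivo (Ifi30, March1 and Lgmn), where 19.4% of all genes were, and 1 in vitro (14.4%). In AMs 2 were higher ex vivo (Ifi30 and Cd83, with 22.9% of all genes) and 2 in vitro (Ctsl and Lgmn, with 25.9%). In MG 1 was higher ex vivo (21.2% of all genes) and 0 in vitro (25.2%).

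Of 6 genes of T cell co-stimulation and co-inhibition, Cd86, a ligand of CD28, had the direction of the classical chains in KCs and AMs but not in MG or PMs. It was higher in KCs than in KC-LCs (312 and 44.8 CPM, 2.83 ± 0.35, edgeR adjusted p = 0.00162) and lower in AMs than in AM-LCs (12.4 and 127 CPM, -3.34 ± 0.56, adjusted p = 0.00283). In MG it was higher ex vivo (315 and 54.0 CPM, 2.5 ± 0.57, adjusted p = 0.0154), where the classical chains were lower. In PMs, where no classical chain passed, it was also higher ex vivo (129 and 25.2 CPM, 2.36 ± 0.24, adjusted p = 0.000514). Cd40 was lower in MG (0.364 and 8.22 CPM, -4.53 ± 0.88, adjusted p = 0.00926) and in AMs (0.326 and 17.1 CPM, -5.69 ± 0.64, adjusted p = 0.000538). Counted over the list, 2 were higher ex vivo and 2 in vitro in MG, where 21.2% and 25.2% of all genes were. The counts were 3 and 0 in KCs (19.4% and 14.4% of all genes) and 3 and 1 in PMs (12.1% and 16.8%). In AMs they were 1 and 2 (22.9% and 25.9%).

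**Figure D4:**
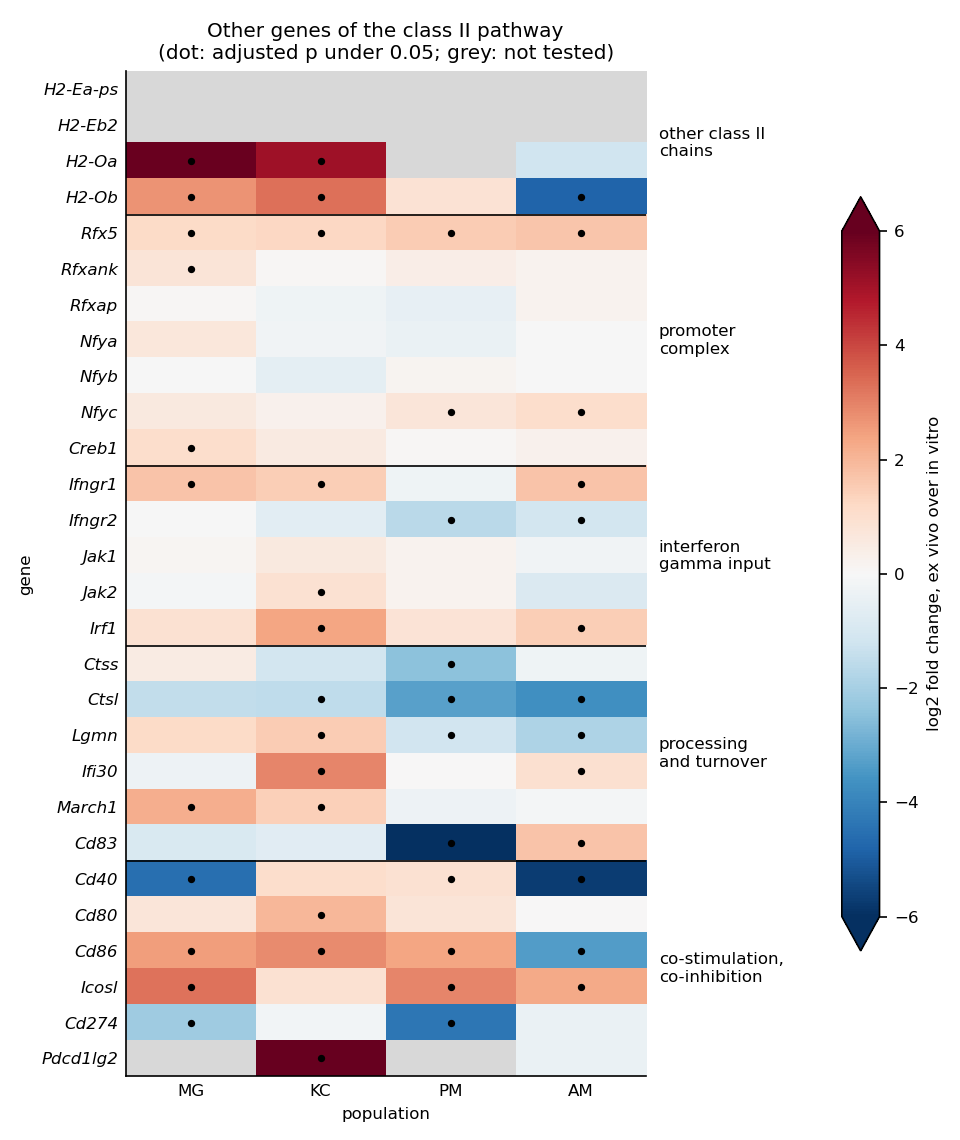
Log2 difference ex vivo minus in vitro of other genes of the class II pathway (rows, by list) in the 4 populations (columns), with colours limited to 6 on either side of 0, grey cells for genes not tested and dots for an adjusted p under 0.05 by edgeR. Rfx5 has a dot and a value above 0 in the 4 columns.

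Markers of other cells that use class II were measured beside these results. In KCs the 10 B cell markers summed to 475, 228 and 350 CPM, against 16.5 to 29.9 CPM in KC-LCs. Of these, 10 of 10 were higher ex vivo, where 19.4% of all genes were. Ms4a1, a B cell surface marker, was at 12.1, 5.04 and 10.4 CPM. The 10 dendritic cell markers summed to 967, 172 and 179 CPM, against 1.94 to 9.72 CPM in KC-LCs, and 9 of 9 tested were higher ex vivo, with Flt3 at 198, 20.8 and 29.0 CPM and Xcr1 at 206, 18.4 and 27.0 CPM. Siglech, a marker of plasmacytoid dendritic cells, was at 0 in the 3 KC libraries. The 8 hepatocyte markers summed to 116 to 241 CPM, against at most 0.0997 CPM in KC-LCs, and all were higher ex vivo. The part of these cells in the class II levels of KCs was not tested.

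In AM-LCs the dendritic cell markers summed to 200, 82.3 and 68.5 CPM, against 9.90 to 10.5 CPM in AMs. Of 8 tested, 7 were higher in vitro, where 25.9% of all genes were. The sum was highest in the library with the most class II transcripts. Ccr7 was at 52.2, 30.8 and 18.8 CPM, and Flt3 was at 0 in the 3 libraries. B cell markers summed to 51.7 to 105 CPM in AM-LCs and 165 to 239 CPM in AMs. The part of cells with these markers in the AM-LC levels was not tested.

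In sorted MG the B cell markers summed to 591 to 675 CPM, of which Ighm made up 526 to 605 CPM, and Ms4a1 and Pax5 were at 0 in the 3 libraries. Of the 4 tested, 3 were higher in MG than in MG-LCs, where 21.2% of all genes were. These were Ighm, Cd79b (means of 35.4 and 1.76 CPM) and Ighd (17.9 and 0.0286 CPM). Dendritic cell markers without Siglech summed to 34.4 to 39.3 CPM in MG and to between 5.0 and 11.8 CPM in MG-LCs. In MG-LCs the 6 markers of monocytes and small peritoneal macrophages summed to 18.3, 18.4 and 186 CPM, of which F13a1 alone made up 13.6, 16.1 and 184 CPM. Ccr2, Ly6c2, Retnla, Cd226 and Irf4 were each under 5 CPM in the 3 libraries. MG-LC replicate 3, the highest for F13a1, was also the library with the most class II transcripts of its group. In PMs the same list summed to 1060, 2132 and 1811 CPM and was lowest in the library with the fewest class II transcripts, while in PM-LCs it summed to 9.31 to 58.0 CPM. The part of such cells in the class II levels of MG-LCs and PMs was not tested.

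**Figure D5:**
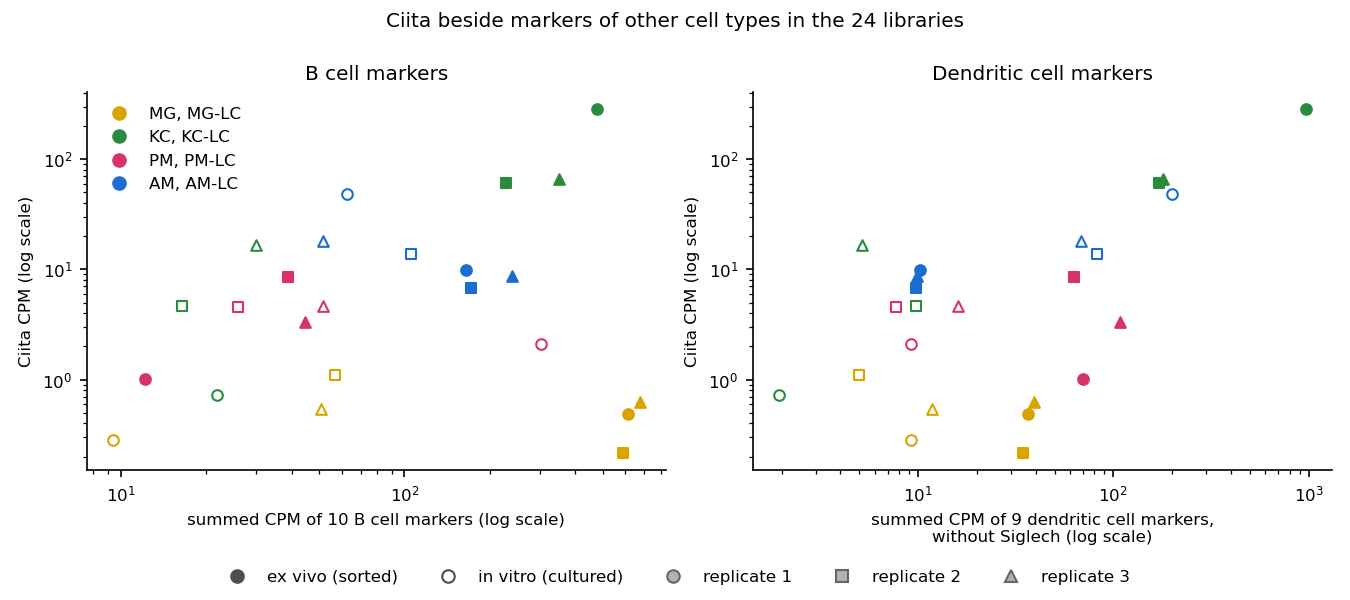
Ciita (y axis) against the summed level of 10 B cell markers (left) and of 9 dendritic cell markers without Siglech (right) in each of the 24 libraries, all in TMM-normalised CPM on log axes, with a colour per tissue and open symbols for cultures. Siglech, left out on the right, averaged 1870 CPM in sorted MG. KC replicate 1 is at the top right of the dendritic cell panel (284 CPM of Ciita, 967 CPM of markers), and sorted MG combine 591 to 675 CPM of B cell markers with at most 0.621 CPM of Ciita.

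Over the 24 libraries, the genes whose level was most like the mean standardised log2 level of the 8 were Stard5 (Pearson r = 0.896), Ptcd2 (0.884), Clec1b (0.866), Prss30 (0.860), Usp16 (0.851), Acp5 (0.843), Gm2a (0.835), the dendritic cell marker Clec9a (0.833), Hepacam2 (0.830) and Apol7c (0.826), out of 17400 genes. The points are libraries in 8 groups that share tissue and treatment within a group, so these values are a description. By Spearman correlation, 5 of these 10 genes were again among the first 10.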

How the data were processed

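The authors prepared SMARTer v4 and Nextera XT libraries (no strand kept), sequenced single reads, trimmed them with Trimmomatic, aligned them with STAR and deposited 1 table of raw read counts per gene. Their methods name mm10. The submitters' notes name hg19 with STAR 2.5.2b and Trimmomatic 0.36, but the identifiers are mouse Ensembl genes. How reads in stretches shared by 2 genes were assigned is not given in the sources used here, and such reads can be lost or split. Symbols, exon lengths and GRCm38 coordinates came from GENCODE M21 (45143 of 45706 identifiers matched). Counts were filtered with filterByExpr (minimum count 10), TMM-normalised and tested with edgeR 4.0.16 quasi-likelihood in R 4.3.3, with Benjamini-Hochberg adjustment over all genes tested and a call at an adjusted p under 0.05. The ex vivo and in vitro groups were fitted tissue by tissue (6 libraries), sorted or cultured groups together (12), and the interaction over 24. The edgeR fits stand in place of the study's limma-voom, which was an alternative with DESeq2 1.42.0 and limma 3.58.1. Each edgeR fit was tried on simulated data for its first comparison only. The remaining pairwise comparisons and the alternatives were not tried in this way. Replicates of a group differed by more than counting noise, so none was a repeat deposit. All 8 genes passed the filter in the 4 comparisons of ex vivo and in vitro groups. The text names the 8 genes by their symbols whatever their values, list genes that passed a test, and the 10 genes most like the 8. The genes and lists were chosen with earlier results of these data known. Depth and counting error are given in reads where a level is low. Some genes of the lists are not reported here.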

Additional observations from a re-analysis of the deposited data

Results flagged for a closer look

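The difference between ex vivo and in vitro groups itself differed between MG, KCs, PMs and AMs for each of the 8 genes, by the interaction test of edgeR over 24 libraries. The adjusted p was 2.58e-05 for H2-Aa, 0.000256 for H2-Ab1, 0.000228 for H2-Eb1 and 0.0014 for Cd74, the genes that were higher ex vivo in KCs and higher in vitro in MG. It was 0.0229 for H2-DMa, which was higher ex vivo in the 4 populations by 1.15 to 2.72 on the log2 scale. For H2-DMb1 (0.000138) the calls were ex vivo in KCs and MG and in vitro in PMs, and for H2-DMb2 (0.00182) they were ex vivo in KCs and MG and in vitro in AMs. For Ciita (0.00798, and 0.0945 by limma-voom, which does not pass) they were ex vivo in KCs and in vitro in AMs. Of all genes, 36.3% passed this test.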

How the results depend on the processing

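Of the counts of called genes recomputed under the alternatives, 422 stayed within 1.5 times the reported count and 32 did not, and of the differences of single genes 1195 kept direction and side of the threshold, 79 lost the call, 7 gained one, 30 changed sign and 1 moved. The cause of each change was not tested. Leaving out 1 library gave 1 to 3 genes higher in MG than in MG-LCs, 5 to 8 higher in KCs than in KC-LCs, 0 to 1 higher in PM-LCs than in PMs, 3 to 7 higher in AM-LCs than in AMs, 1 to 2 higher in MG than in PMs, 0 to 2 higher in AM-LCs than in KC-LCs and 1 to 3 higher in AM-LCs than in PM-LCs. Without the filter on low counts, 1 gene was higher in MG than in MG-LCs. A log2 difference above 1.5, added to the call, left 0 genes higher in PM-LCs than in PMs, 0 higher in AMs than in AM-LCs, 0 higher in MG than in PMs, 5 higher in AMs than in MG and 1 higher in AM-LCs than in KC-LCs. DESeq2 called 6 genes higher in KC-LCs than in MG-LCs, where it called 7.15% of all genes in either direction. It called 1 higher in PM-LCs than in MG-LCs (6.15%), 5 higher in AM-LCs than in KC-LCs and 8 higher in AM-LCs than in PM-LCs. The share of all genes is not given for these last 2 counts. Nor is it given, here or above, for counts with 1 library left out, without the filter, with the added fold change or with the replicate number as a block. Ciita in AMs against AM-LCs lost its call when all 24 libraries shared 1 fit (adjusted p = 0.159), in the interaction test under limma-voom (adjusted p = 0.0945), and in MG against PMs under limma-voom (adjusted p = 0.227).

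Libraries that shared a replicate number did not deviate together (correlations of -0.104 to 0.0558), and nothing says that a number marks a shared mouse or day. With the number as a replicate block, 6 genes were called in the brain (2 for MG, 4 for MG-LCs), 7 in the liver (for KCs), 2 in the peritoneum (1 each way) and 6 in the lung (1 for AMs, 5 for AM-LCs), and 1 was higher in AM-LCs than in KC-LCs. Ciita in KCs then had an adjusted p of 0.0617, and AMs exceeded PMs in 4 genes, as H2-Aa (0.0671) and H2-Ab1 (0.0606) no longer passed.

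Changes of sign were confined to differences that had not passed the test. Against PM-LCs, Cd74 in PMs was 0.1 by limma-voom and 0.05 with the block, and Ciita -0.16 and -0.21. H2-DMb2 in KC-LCs against PM-LCs was 0.18 by limma-voom and 0.08 with the block. With 1 library left out, Ciita in MG ranged from -0.94 to 0.07. In PMs the range was -0.59 to 0.21 for H2-Aa, -0.42 to 0.34 for H2-Ab1, -0.49 to 0.60 for H2-Eb1, -0.26 to 0.88 for H2-DMb2, -0.45 to 0.79 for Cd74 and -0.78 to 0.66 for Ciita. Between KCs and AMs it was -0.31 to 0.02 for H2-DMa and -0.13 to 1.33 for H2-DMb2. Between KC-LCs and PM-LCs it was -0.07 to 1.44 for H2-Aa, -0.10 to 1.86 for H2-Eb1, -0.07 to 0.31 for H2-DMb1, -0.46 to 0.68 for H2-DMb2, -0.14 to 1.82 for Cd74 and -0.50 to 1.52 for Ciita. Depth limits H2-Aa, H2-Eb1 and Ciita in MG, which rest on 8 to 31 reads a library.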

Other observations

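H2-Eb2 had 6.44 CPM in KC replicate 1 and 0.485 CPM in KC replicate 3, and 0 in KC replicate 2. It had at most 0.646 CPM in any library of the other groups.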
